A study of Rattus norvegicus with 54 samples.

Results

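Htra1 is the gene of a secreted serine protease and is 1 of the 45785 named genes and loci in a count table of the rat nucleus accumbens, the ventral striatal region that handles reward. It was followed here in all 54 bulk RNA libraries of the series, taken by its symbol, after earlier results of these data were known. The contrast that drew attention to it is not recorded and was taken to be that of prenatally ethanol-exposed with control adolescents. Its rank by p was 3 there, 2 in adult females and 1 in the adult female minus male difference. Male and female Long Evans rats came from dams that received ethanol (PAE) or a free-choice liquid diet (FCL), and the offspring were later given alcohol in adolescence (AAE) or water (VEH). Adults were taken at postnatal day 90 (P90) without a further challenge, and adolescents at P42, 24 h after their last adolescent treatment.

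The adult groups were PAE-AAE females (n = 5), FCL-VEH females (n = 8), PAE-AAE males (n = 6) and FCL-VEH males (n = 6). The adolescent groups were PAE-VEH females (n = 4), FCL-VEH females (n = 7), PAE-VEH males (n = 9) and FCL-VEH males (n = 9). The FCL-VEH groups are referred to as controls. Every adult exposed animal carried both the prenatal and the adolescent alcohol, so their effects cannot be told apart, and no pair-fed group is among these libraries. The labels name no litters and do not say that each library came from a separate animal, so p-values measure the spread between libraries.

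The HtrA1 protein leaves the cell and cuts proteins of the extracellular matrix, and it is reported to restrain signalling by the TGF-beta family of growth factors. Ahead of its trypsin-like protease part lie an insulin-like growth factor binding module and a Kazal module of the kind found in protease inhibitors, and a PDZ domain follows it; the deposited annotation lists the same 4 kinds of domain. In mouse brain the transcript is known mainly from astrocytes, and in people the loss of the enzyme causes a hereditary disease of the small cerebral vessels.

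The gene (ID 65164) lay on the plus strand of chromosome 1 from 194928069 to 194977619, in the coordinates of the deposited table, which are those of the rat assembly GRCr8. The 250 bases in front of its start are printed here from RefSeq on GRCr8, chr1:194927819-194928068, plus strand, to show the promoter of the gene whose level is followed here. Capitals mark the matches to the CCAAT box, searched as CCAAT and ATTGG:
Htra1 upstream: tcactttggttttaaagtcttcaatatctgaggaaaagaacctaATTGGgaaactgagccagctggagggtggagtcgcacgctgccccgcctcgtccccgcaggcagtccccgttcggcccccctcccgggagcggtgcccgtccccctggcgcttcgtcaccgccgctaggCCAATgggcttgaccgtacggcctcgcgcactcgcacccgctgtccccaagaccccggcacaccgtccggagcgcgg
The matches began 206 and 77 bases before the start, and 34% of 33469 rat promoters of the same length held at least 1 such match. The stretch was 66% G and C, against a median of 51.2% over those promoters, and it held 25 CpG dinucleotides, more than 90.3% of them. None of the other motifs searched on both strands was in this window: the GC box GGGCGG (in 30.5% of promoters), the TATA box TATAAA (12.9%), the E-box CACGTG (5.59%), the glucocorticoid receptor half-site AGAACA (17.5%) and the Smad box CAGAC (42.9%).

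Depth ran from 59.1 to 103.8 x 1e6 counts per library, and Htra1 itself took between 3914 and 11867 counts, with a median of 6730.5. At the lowest of these counts the counting error alone is 1.6% of the value, far below the spread between libraries, which was 10.4% to 19.2% of the mean within a group. The tissue label was checked against markers of medium spiny neurons, the main striatal cell type: Drd1 ran from 115.5 to 471.6 CPM (counts per 1e6 counts) and Drd2 from 65.1 to 265.2 CPM over the 54 libraries. Markers of neighbouring tissue varied widely, with Ttr of choroid plexus between 3.07 and 3761 CPM and Slc17a7 of cortical excitatory neurons between 4.15 and 1185 CPM. Sex markers went against the label in 3 libraries, called sex-discordant here, which are the libraries labelled female control replicate 5, male control replicate 8 and male PAE-VEH replicate 5, all at P42, and 4 libraries correlated less well with the others of their age, namely female control replicate 1 and male control replicates 3 and 6 at P90 and male PAE-VEH replicate 6 at P42. All stayed in their labelled groups, and values without them are given for some of the Htra1 comparisons and for the listed genes that passed with age. At P90 the female marker Xist was 53.2 CPM in male control replicate 6 and 30.7 CPM in PAE-AAE male replicate 5. Both counted as male, with Ddx3y of the Y chromosome at 81.8 and 91.5 CPM, and both had the highest Htra1 of their group.

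Htra1 was an abundant transcript in this tissue. Per length of the gene its level ran from 29.7 to 71.2 FPKM (fragments per kilobase of gene and 1e6 fragments), with a median of 44.6 FPKM, and 97.2% of the named genes had a lower median. By group mean in CPM (TMM scaling of library size), the order was PAE-AAE females at P90 (130.9 ± 15.6), control males at P90 (105.9 ± 15.5), PAE-AAE males at P90 (100.8 ± 12), PAE-VEH females at P42 (97.7 ± 11.3), PAE-VEH males at P42 (97.4 ± 18.7), control females at P90 (91.2 ± 9.53), control males at P42 (75.1 ± 9.97) and control females at P42 (72.8 ± 11), each with its SD. The ranges of any neighbours in this order overlapped. The gap was widest between PAE-AAE females at P90 and the group after them, at 25 CPM, and the next gap, 16.1 CPM, separated the control females at P90 from the control males at P42.

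**Figure D1:**
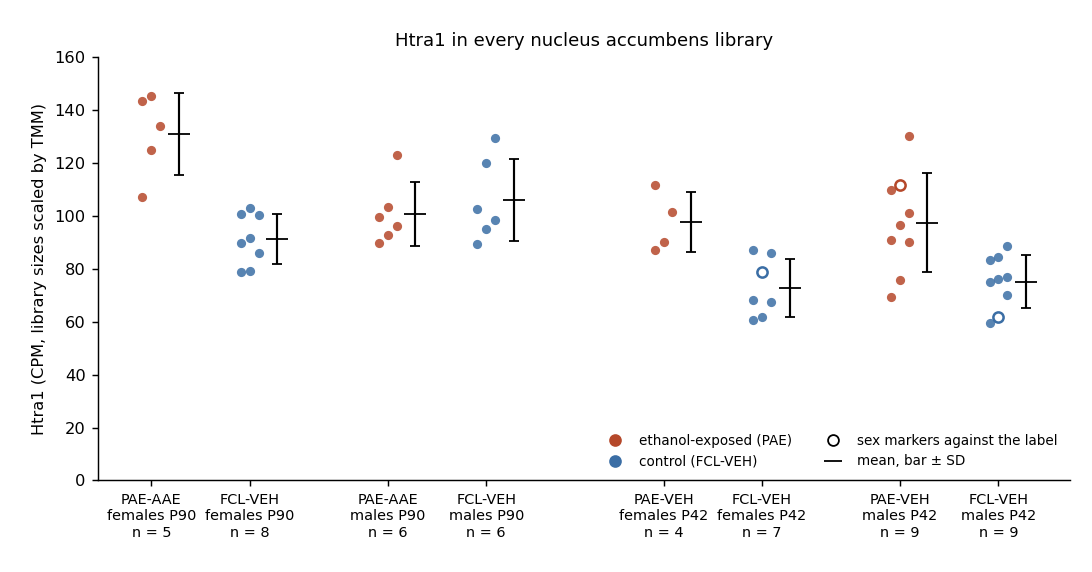
Htra1 level in CPM (TMM-scaled, linear axis from 0) in each of the 54 libraries, by group, with the exposed group left of its control; black bars are the mean ± SD and open points the 3 libraries whose sex markers go against the label. All 5 PAE-AAE females at P90 lie above every control female of that age, while the adult male groups overlap.

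Whether prenatal plus adolescent alcohol left a mark in adulthood is the question of the P90 comparison. In PAE-AAE females Htra1 stood at 145.2, 143.4, 133.8, 125.1 and 107.1 CPM, against 103.04, 100.8, 100.2, 91.6, 89.9, 86.1, 79.2 and 78.9 CPM in control females. The groups did not overlap: all 5 exposed libraries lay above the highest control library. Of the 24018 genes tested, 0.0749% had every exposed female library above every control. The difference was 0.52 ± 0.09 on the log2 scale (SE), a fold of 1.44.

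In the test across all genes this female difference did not pass, with an adjusted p = 0.109 (edgeR quasi-likelihood F test, two-sided, Benjamini-Hochberg over 24018 genes). Its unadjusted p of 9.11e-06 was the second smallest of the comparison, and since the gene was taken up with these results known, the p-values at P90 are a description of the fit and no independent evidence. Of all genes 0% passed by edgeR in this comparison, 1013 had an unadjusted p under 0.05, and DESeq2 called 8 genes and voom 1. DESeq2 gave Htra1 an adjusted p = 0.00435, and over all alternatives, each library left out in turn included, its adjusted p ran from 0.00435 to 0.775, with a log2 difference between 0.48 and 0.58.

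Adult males overlapped. Htra1 stood at 123.1, 103.3, 99.7, 96.2, 92.8 and 89.6 CPM in PAE-AAE males, against 129.6, 119.9, 102.7, 98.6, 95.1 and 89.5 CPM in control males. The exposed and control ranges nearly coincided, and 2 of 6 exposed libraries lay above the control median. The log2 difference was -0.07 ± 0.10 (edgeR adjusted p = 0.863), and it was 0.01 with an astrocyte marker score as a covariate. All 16 astrocyte markers and all 10 microglial markers were lower in PAE-AAE males, with medians of -0.13 and -0.50 against 0.01 over all genes. So were all 10 myelin (-0.47), all 8 ependymal (-0.24) and all 8 cortical neuron markers (-0.62), and 10 of 11 of choroid plexus (-0.86). All 10 endothelial (0.34), all 8 pericyte and smooth muscle (0.47) and 9 of 10 meningeal and fibroblast markers (0.72) were higher. None of these markers passed. The summed astrocyte level was 8880 to 12000 CPM in PAE-AAE males and 9850 to 12900 CPM in control males, and the microglial one 135 to 251 CPM in PAE-AAE males and 183 to 395 CPM in control males. Of the 24018 genes 0% passed in males by edgeR, 2090 had an unadjusted p under 0.05, and 2 were called by DESeq2 and 1 by voom.

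The female and the male effect at P90 differed by 0.60 ± 0.14 (log2, female minus male). This had the smallest p of all genes in that comparison, 0.000179, and did not pass after adjustment (edgeR adjusted p = 0.422). In the same contrast 15 of 16 astrocyte markers (median 0.26), 10 of 10 microglial (0.46) and 10 of 10 myelin markers (0.48) were above 0. So were 10 of 11 choroid plexus markers (1.82) and 9 of 10 immediate early, or activity-induced, genes (0.52). All 10 endothelial (-0.25), all 8 pericyte and smooth muscle (-0.58) and 9 of 10 meningeal and fibroblast markers (-0.46) were below 0. The median over all genes was -0.035, and no gene of these lists passed. The Htra1 value was 0.48 with the astrocyte score as a covariate (adjusted p = 1) and 0.55 without the outlying libraries. In the main edgeR fit no gene passed in this contrast (0%), with 2540 at an unadjusted p under 0.05, and 0 were called by DESeq2 and by voom. Averaged over the sexes the effect was 0.23 ± 0.07, with an adjusted p = 1, in a comparison where 0.00416% of the genes passed.

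Marker lists gave the cellular setting of the female difference, in which more cells of a type and more RNA per cell cannot be told apart. Of 16 astrocyte markers 13 were higher in PAE-AAE females, with a median of 0.12 against -0.02 over all genes tested, and none passed. Their summed level was 12100 to 15100 CPM in PAE-AAE females and 10200 to 13300 CPM in control females, so the ranges overlapped, and no marker was at 0 in every library of either group. All 11 choroid plexus markers were higher, by a median of 0.96, with sums of 41.5 to 3860 CPM in PAE-AAE females and 95.2 to 846 CPM in control females. All 12 markers of medium spiny neurons were higher as well (median 0.23), as were 8 of 10 of meninges and fibroblasts (0.35), with sums of 4900 to 7070 CPM in PAE-AAE females and 2410 to 7400 CPM in control females for the neurons, and of 69.2 to 190 CPM in PAE-AAE females and 28 to 361 CPM in control females for meninges and fibroblasts. The Htra1 difference was 0.52 without the outlying libraries, 0.49 with the astrocyte score as a covariate and 0.53 with the scores of choroid plexus, ependyma and cortical neurons as covariates.

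At P42 the exposure was prenatal alone, followed by water. These values are given with no test, because they were taken to be the ones the gene was picked from, which is not recorded: in the mean over the sexes it had the third smallest p of 24741 genes. The 4 PAE-VEH females stood at 111.8, 101.5, 90 and 87.3 CPM, against 87, 85.8, 78.7, 68.3, 67.4, 61.9 and 60.5 CPM in control females. Exposed and control females did not overlap, though the lowest exposed and the highest control library were nearly level, and such a separation held for 2.12% of the genes tested.

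PAE-VEH males ran from 69.5 to 130.3 CPM, with a median of 96.5 CPM, against 59.4 to 88.8 CPM with a median of 76.3 CPM in control males. Of the 9 exposed males 7 lay above every control male, and the other two lay within the control range. The highest value belonged to PAE-VEH male replicate 6, an outlying library, and the library labelled PAE-VEH male replicate 5, whose sex markers were female, stood at 111.8 CPM.

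The log2 difference at P42 was 0.42 ± 0.13 in females and 0.38 ± 0.10 in males, folds of 1.34 and 1.30. The 2 effects differed by 0.04 ± 0.17 (female minus male), and their mean was 0.40 ± 0.08. With the sex-discordant libraries left out the values were 0.44 in females and 0.32 in males, and without the outlying libraries 0.42 and 0.31. For the mean over the sexes 0% of the genes passed the edgeR test, 2681 had an unadjusted p under 0.05, and 21 were called by DESeq2 and 0 by voom. The adult and the adolescent comparison rest on separate libraries, but the difference between the ages in the exposure effect was not tested.

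Beside these P42 values, all 16 astrocyte markers were higher in PAE-VEH males (median 0.17, against 0.01 over all genes) and 7 of 16 in PAE-VEH females (median -0.05, against -0.03). The summed astrocyte level was 10600 to 12900 CPM in PAE-VEH males and 9390 to 11100 CPM in control males, and 9380 to 11200 CPM in PAE-VEH females and 9910 to 11100 CPM in control females. With the astrocyte score as a covariate the Htra1 difference was 0.47 in females and 0.28 in males. In PAE-VEH females all 8 ependymal markers were lower, with a median of -0.76, as were all 11 of choroid plexus (-1.17) and all 10 of myelin (-0.32). All 12 markers of medium spiny neurons (0.49) and 7 of 8 of cortical neurons (0.70) were higher. In PAE-VEH males all 10 markers of meninges and fibroblasts were higher (1.24). With the choroid plexus, ependyma and cortical scores as covariates the female Htra1 value was 0.29.

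**Figure D2:**
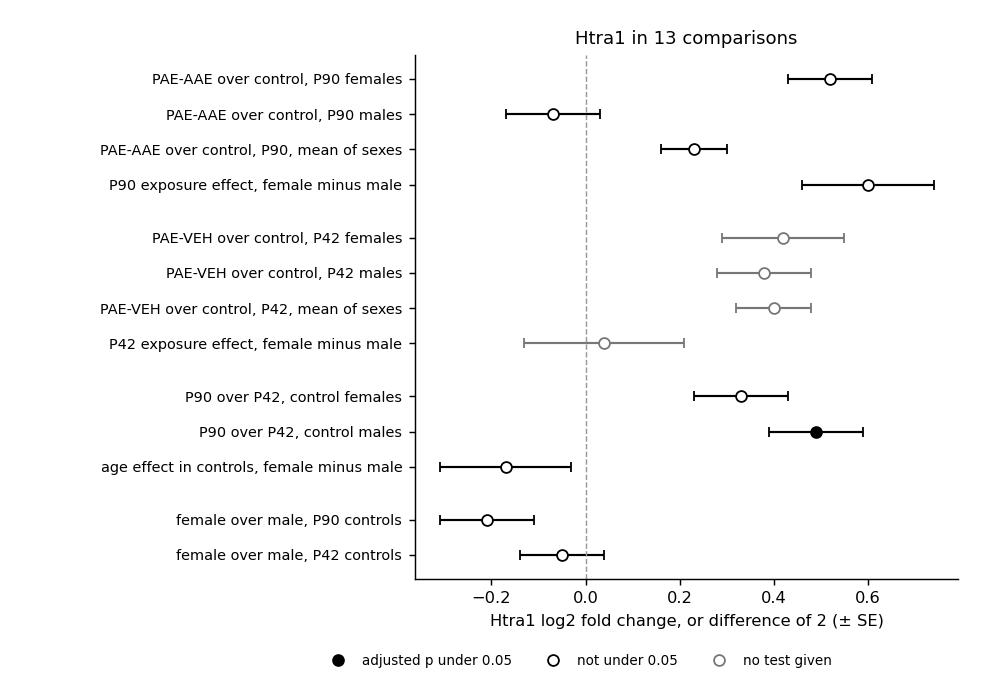
Htra1 log2 fold change, or difference of 2 such changes, with its SE as a horizontal bar, in the 13 comparisons; filled points passed at an adjusted p under 0.05 over all genes, and grey points are given without a test. The age change in control males (0.49) is the filled point, and PAE-AAE females at P90 (0.52) lie farther from 0 than PAE-AAE males (-0.07).

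Between adolescence and adulthood Htra1 rose in control males. The 6 control males at P90 had the values given above, from 89.5 to 129.6 CPM, and every one lay above the highest of the 9 control males at P42, at 88.8 CPM. The 2 ages did not overlap, a separation that 0.362% of the 24065 genes tested showed. The change was 0.49 ± 0.10 on the log2 scale, a fold of 1.41 (edgeR adjusted p = 0.00547).

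This call held with each of the 30 control libraries left out in turn, with an adjusted p between 0.00259 and 0.0352. It ended without the outlying libraries, 2 of which are adult control males (0.46, edgeR adjusted p = 0.0561), and with the astrocyte score as a covariate (0.33, adjusted p = 0.299). The P42 controls also served in the comparison the gene was taken to be picked from, so this is not independent of that choice. Age and the time since the adolescent treatment cannot be told apart here.

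In males 2.57% of the 24065 genes passed, which is 618 genes. Leaving out adult male control replicate 6 gave 17.3% of that count. Leaving out replicate 4 of that group gave 184 genes, replicate 1 gave 1109 and replicate 2 gave 1222. It was 392, 384, 308 and 390 without adolescent male control replicates 2, 3, 7 and 8, 1108 without adult female control replicate 1, 68 without the outlying libraries and 329 without the sex-discordant ones.

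Control females had 78.9 to 103.04 CPM of Htra1 at P90, against 60.5 to 87 CPM at P42. All 8 adults lay above the adolescent median of 68.3 CPM, and 5 of 8 lay above the highest adolescent. The change of 0.33 ± 0.10 did not pass (edgeR adjusted p = 0.124), in a comparison where 0.403% of the genes, 97 in all, did. That count was 57 without adolescent female control replicate 2 or replicate 3, 58, 293 and 168 without adult replicates 3, 4 and 6, and 57 with the sex-discordant libraries left out. The female change minus the male change was -0.17 ± 0.14 (adjusted p = 0.78), and no gene passed in that test (0%), with 2011 at an unadjusted p under 0.05 and 0 called by DESeq2 and by voom.

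No sex difference in Htra1 passed. At P90 the difference, females minus males, was -0.21 ± 0.10 on the log2 scale in controls (edgeR adjusted p = 0.823), where 0.0457% of the genes passed. At P42 the difference was -0.05 ± 0.09 (adjusted p = 0.991), where 0% passed the edgeR test, 1441 genes had an unadjusted p under 0.05 and 7 were called by DESeq2 and by voom each. The P42 groups include the sex-discordant female control replicate 5 and male control replicate 8, so both groups were of mixed sex by their markers. Over the alternative fits, that without the sex-discordant libraries included, the P42 difference ran from -0.09 to 0.04.

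The 3 relatives of Htra1 were at lower levels, and none passed in any tested comparison. Htra2, the mitochondrial member of the family, had a median of 16.9 FPKM, Htra3, a secreted relative, 1.09 FPKM, and Htra4, another secreted relative, 0.977 FPKM, so that the median ratio of Htra1 to them was 2.64, 42.2 and 48.3. In P90 females the exposure difference was -0.09 ± 0.08 for Htra2, 0.09 ± 0.21 for Htra3 and -0.18 ± 0.27 for Htra4, each with an edgeR adjusted p = 1. In control males the age change was -0.01 ± 0.07, 0.22 ± 0.12 and 0.30 ± 0.20 for the same 3 genes.

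The neighbours of Htra1 did not pass in any tested comparison. Plekha1, which encodes a lipid-binding adaptor and ends 18651 bases before Htra1, had an age difference of -0.33 ± 0.11 in control males (edgeR adjusted p = 0.1) and of -0.42 ± 0.11 in control females (adjusted p = 0.0677). Its exposure difference at P90 was -0.07 ± 0.10 in females and -0.11 ± 0.10 in males. A long non-coding locus, LOC134485181, lies within Htra1 on the same strand (194928587 to 194949813), and its group medians were 0.0439 to 0.06 FPKM, against 34 to 65.5 FPKM for Htra1. How the read counter divided reads over the shared bases is not given in the sources used here. On the other side the nearest tested gene is Cuzd1, 541990 bases away and at or near 0 CPM.

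The TGF-beta family, whose signals HtrA1 is reported to restrain, was read from ligands to targets. Of its 12 ligands 11 were higher in PAE-AAE females at P90, with a median of 0.17 against -0.02 over all genes, and none passed. The smallest p belonged to Gdf11 (0.21 ± 0.13) and Bmp6 (0.30 ± 0.25). In PAE-AAE males 4 of 12 ligands were higher, with a median of -0.14 and none past the threshold. At P42, given with no test, 3 of 12 ligands were higher in PAE-VEH females (median -0.13) and all 12 in PAE-VEH males (0.18). Among the 12 receptors Bmpr1b, a type I receptor for bone morphogenetic proteins, was at 0.24 ± 0.11 in P90 females, and the median was 0.03.

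The 9 secreted or decoy antagonists had a median of 0.12 in P90 females, with Fst, which binds activins, at 0.21 ± 0.22, and of -0.02 in P90 males, with Nog, which binds bone morphogenetic proteins, at -0.57 ± 0.21. No antagonist passed. The 8 Smads, the intracellular carriers of these signals, had medians of 0.01 in females and 0.04 in males. Of 14 target genes 11 were higher in P90 females with a median of 0.16, led by Pmepa1, a feedback inhibitor (0.32 ± 0.16), and Atoh8 (0.53 ± 0.26), and none passed.

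With age some of these genes passed in control males. Of all 19 listed genes that did, only Sult1a1 and Gpr17, described further on, also passed without the outlying libraries, and 10 did without the sex-discordant ones. Smad9, a Smad of the bone morphogenetic protein branch, rose by 0.59 ± 0.15 (edgeR adjusted p = 0.0329), Tgfbi, a TGF-beta induced matrix protein, by 0.89 ± 0.22, and Id3, an inhibitor of differentiation factors, by 0.49 ± 0.13. They were 1 of 8 Smads and 2 of 14 targets, beside 2.57% of all genes. Without the outlying libraries their edgeR adjusted p was 0.17, 0.249 and 0.417 for Smad9, Tgfbi and Id3, and without the sex-discordant ones Tgfbi still passed. No ligand, receptor or antagonist passed in males, and no member of these 5 lists did in females, where Smad9 was at 0.30 ± 0.15.

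Of the 15 proteins reported as substrates of HtrA1, 8 had transcripts that were higher and 7 lower in PAE-AAE females at P90, with a median of 0.01 and none past the threshold. In control males Apoe, the lipid carrier of astrocytes, rose with age by 0.54 ± 0.13 (edgeR adjusted p = 0.0238) and Clu, the chaperone clusterin, by 0.40 ± 0.10 (adjusted p = 0.0249), while the list median was 0.00. Without the outlying libraries the adjusted p was 0.0824 for Apoe and 0.151 for Clu, and without the sex-discordant ones 0.0429 and 0.0488. In control females Apoe was at 0.43 ± 0.13 (adjusted p = 0.132), and 12 of 15 were higher, with a median of 0.17. The 10 genes of the insulin-like growth factor system had a median of 0.00 in P90 females, with the binding protein gene Igfbp4 at 0.44 ± 0.20, and none passed in any tested comparison of exposure or age.

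Among 18 other extracellular proteases none passed for exposure. Mmp16, a membrane-bound metalloproteinase, fell with age in control males (-0.31 ± 0.08), and Adamts4, which cuts proteoglycans, fell in control females (-1.12 ± 0.23). The 13 protease inhibitors tested, of 14 listed, had a median of -0.01 in P90 females, and Cst3, the secreted inhibitor cystatin C, rose with age in control males by 0.74 ± 0.20 (edgeR adjusted p = 0.04). Neither Mmp16 nor Cst3 passed without the outlying libraries (adjusted p = 0.33 and 0.185) or without the sex-discordant ones (0.0656 and 0.0716), and Adamts4 passed without the outlying (0.0181) but not without the sex-discordant ones (0.0881). Cst3 was at -0.75 ± 0.22 for exposure in P90 males, and its female minus male difference was 1.0 ± 0.31 (adjusted p = 0.422).

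Glucocorticoid-induced and activity-induced genes were followed because stress and activity at death can move many transcripts. Of 10 glucocorticoid-induced genes 7 were higher in PAE-AAE females at P90 (median 0.13) and 2 in PAE-AAE males (median -0.14), and none passed. With age Sult1a1, a sulfotransferase, rose by 1.23 ± 0.20 in control males and by 0.88 ± 0.20 in control females, where the kinase gene Sgk1 also rose, by 0.92 ± 0.21. Of 10 immediate early genes 9 were higher in PAE-AAE females, with a median of 0.49, against -0.02 over all genes, and Nr4a1 at 1.05 ± 0.29 (edgeR adjusted p = 0.963). At P42, given with no test, all 10 were higher in PAE-VEH females (median 0.57) and 9 in PAE-VEH males (0.17). Of the glucocorticoid-induced genes 9 of 10 were higher at P42 in each sex, with medians of 0.21 in females and 0.13 in males. Fos, Dusp1 and Fosb rose with age in control males, by 1.0, 0.74 and 0.69, and Fosb in control females, by 0.97. They were 3 of 10 immediate early genes in males and 1 of 10 in females, beside 2.57% and 0.403% of all genes. Without the outlying libraries the edgeR adjusted p in males was 0.269 for Fos, 0.186 for Dusp1, 0.152 for Fosb and 0.0224 for Sult1a1, and without the sex-discordant ones Dusp1 and Sult1a1 passed. In females Fosb passed without either set, Sgk1 (0.0441) only without the outlying libraries, and Sult1a1 in neither case (0.0572 and 0.0852).

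A few cell type markers passed with age, beside 2.57% of all genes in males and 0.403% in females. In control males S100b, Aldoc and Mlc1 of the 16 astrocyte markers rose, by 0.61, 0.53 and 0.42, all 16 were higher, and the median was 0.25. The microglial complement genes C1qa, C1qb and C1qc, of 10 markers, rose by 0.74, 0.72 and 0.74, and all 10 were higher. Of these 6 genes none passed without the outlying libraries, with an edgeR adjusted p between 0.0862 and 0.125, and the 3 astrocyte ones passed without the sex-discordant libraries. Gpr17, which marks oligodendrocyte precursors on their way to myelination, fell by 0.81 in both sexes, and Notch3, a receptor of vascular smooth muscle, fell by 0.49 in males. Notch3 passed without the sex-discordant libraries and not without the outlying ones (edgeR adjusted p = 0.102), and Gpr17 passed without either set in both sexes. Of the 5 listed genes that passed with age in females, 4 passed without the outlying libraries and 2 without the sex-discordant ones. Summed astrocyte markers were at 9850 to 12900 CPM in control males at P90 and 9390 to 11100 CPM at P42, beside the Htra1 change that fell to 0.33 with the astrocyte score in the fit.

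Lists with no member past the threshold in either age comparison gave these medians in control males. They were 1.05 for choroid plexus (11 of 11 higher), 0.57 for ependyma (8 of 8), 0.28 for septum and pallidum, -0.08 for myelinating oligodendrocytes and for meninges and fibroblasts, -0.12 for medium spiny neurons, -0.18 for cortical excitatory neurons and -0.23 for endothelium (0 of 10). In control females they were -0.60 for choroid plexus, -0.83 for ependyma (0 of 8), 0.08 for septum and pallidum, -0.57 for myelinating oligodendrocytes (0 of 10), 0.53 for meninges and fibroblasts, -0.09 for medium spiny neurons, 1.06 for cortical excitatory neurons and -0.18 for endothelium. Over all genes the median was between -0.002 and -0.001.

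Which genes rose and fell with Htra1 from library to library was described next, after the 8 group means had been taken out. Pearson's r of log2 CPM over the 54 libraries is given with no p, since the libraries share their tissue composition and depth. Of 14450 genes with a symbol and at least 1 CPM on average, 60.4% had a positive r, the median was 0.0942, 355 exceeded 0.5 and 184 lay under -0.5.

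Pygm, the muscle form of glycogen phosphorylase, which in brain sits in astrocytes, was most like Htra1, with an r of 0.751 (Spearman's rho 0.672). Within the 6 groups of at least 6 libraries its r was positive every time, from 0.32 in PAE-AAE males at P90 to 0.936 in control females at P42. In PAE-AAE females at P90 it stood at 91.1, 85.1, 83.7, 81.6 and 65 CPM, against 41.6 to 74.7 CPM in control females, so that 4 of 5 lay above every control. The exposure difference of Pygm did not pass (0.45 ± 0.15, edgeR adjusted p = 1, in females and -0.17 ± 0.15 in males).

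Next came Jkamp, a membrane protein of endoplasmic reticulum quality control (0.702), Sephs2, which makes selenophosphate (0.642), Cdc42se1, an effector of Cdc42 (0.642), and Gjb6, the astrocyte gap junction protein connexin 30 (0.641). Vmp1, of autophagosome formation (0.633), Smim7 (0.628), the ubiquitin ligase gene Kcmf1 (0.627), Spsb3 (0.625) and Dgcr6 (0.622) completed the 10. The r of Gjb6 within groups ran from -0.0557 to 0.913, and without the outlying libraries it was 0.593. Across the other nine the exposure difference in P90 females was between -0.03 for Sephs2 and 0.15 for Dgcr6, well under the 0.52 of Htra1.

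**Figure D3:**
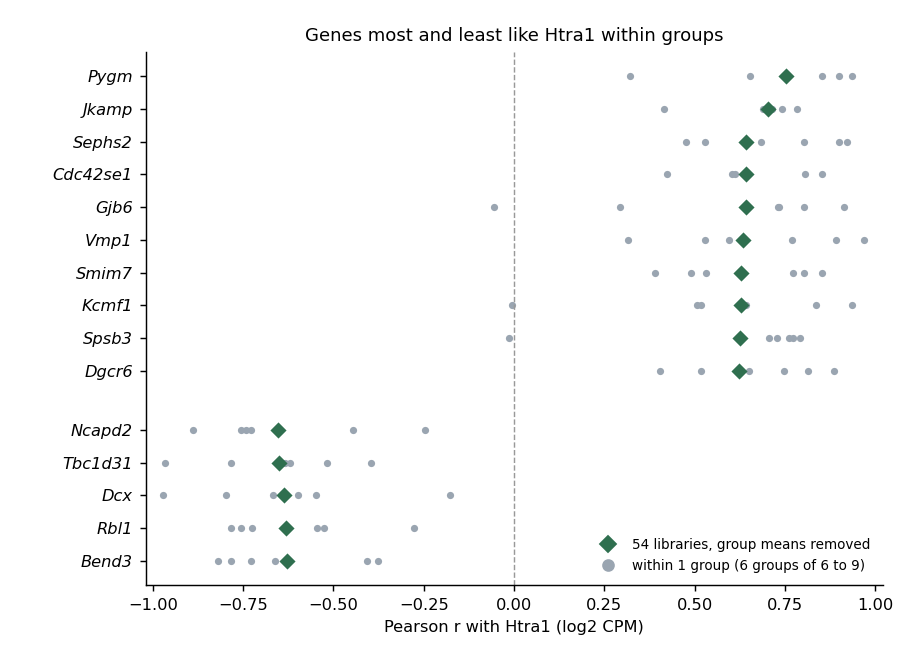
Pearson r with Htra1 for the 10 genes most like it and the 5 least like it; diamonds use 54 libraries with group means removed and grey points are the r within each of the 6 groups of at least 6 libraries. Pygm is positive in all 6 groups, and the r of Gjb6, Kcmf1 and Spsb3 is just under 0 in 1 group each.

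At the other end stood Ncapd2, a condensin subunit (-0.653), Tbc1d31, of centriolar satellites (-0.651), Dcx, the microtubule protein doublecortin of young neurons (-0.638), Rbl1, the retinoblastoma relative p107 (-0.631), and Bend3, a chromatin repressor (-0.63). For all 5 the r was negative in each of the 6 groups. Without the outlying libraries they ran from -0.559 to -0.597. None of the 15 genes passed in the P90 or the age comparisons.

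Among the listed genes the highest r values came from astrocytes and microglia, but the astrocyte list was mixed. Its 16 members ran from 0.641 for Gjb6, with Aldoc, the aldolase of astrocytes, at 0.601, to -0.478 for Sox9, and the water channel Aqp4 was at 0.0033. All 10 microglial markers were positive, with a median of 0.433, led by C1qa (0.589) and lowest for Itgam (0.0941). All 10 myelin markers were positive as well, between 0.181 for Opalin and 0.389 for Cldn11. The same held for all 10 markers of meninges and fibroblasts (median 0.274), 6 of oligodendrocyte precursors (0.196) and 12 of medium spiny neurons (0.15). Without the outlying libraries the r of the mean log2 CPM of meninges and fibroblasts went from 0.301 to 0.137. It went from 0.219 to 0.272 for the precursors and from 0.168 to 0.207 for medium spiny neurons. The 8 ependymal markers were all negative, from -0.419 for Dynlrb2 to -0.468 for Hydin.

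In the pathway lists Smad5 was the lowest member at -0.547 and the receptor gene Acvr2b stood at -0.45, while the ligand gene Bmp4 was at 0.396 and the inhibitory Smad6 at 0.381. Of the reported substrates 14 of 15 were positive, beside 60.4% of all genes, highest for App, the amyloid precursor (0.504), and negative for Igfbp5 (-0.333). Without the outlying libraries the r of the mean log2 CPM of the substrates went from 0.282 to 0.0725. It went from 0.267 to 0.0579 for the ligands and from 0.212 to -0.0633 for the insulin-like growth factor list. For the glucocorticoid-induced list it went from 0.365 to 0.312. Igfbp7 (0.394) and the receptor gene Igf1r (-0.393) bounded the insulin-like growth factor list, Klk6 (0.385) and Adamts9 (-0.401) the other proteases, and Cst3 (0.38) and Serping1 (-0.158) the inhibitors. Tsc22d3, the glucocorticoid-induced leucine zipper gene, was at 0.532, and the immediate early genes lay between -0.312 for Npas4 and 0.163 for Egr4. The relatives Htra2, Htra3 and Htra4 had r values of 0.0969, 0.268 and -0.0194.

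**Figure D4:**
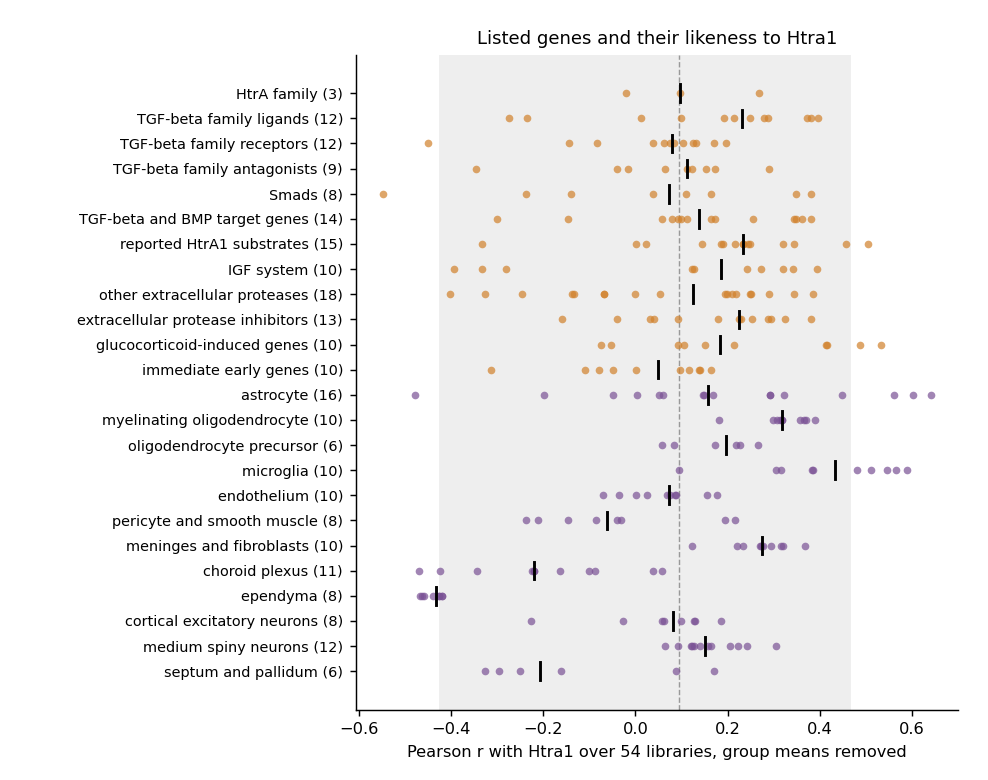
Pearson r with Htra1 over 54 libraries, group means removed, for each member of 24 lists, with the number of members in brackets; black ticks are list medians, the dashed line the median of all 14450 genes (0.0942) and the grey band their 5th to 95th percentile (-0.424 to 0.465). Microglial markers sit to the right (median 0.433) and ependymal markers to the left (median -0.432).

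Scores, the mean log2 CPM of a list, gave the same picture per library. The r of Htra1 with the microglial score was 0.474 and with the astrocyte score 0.316, and without the 4 outlying libraries they were 0.406 and 0.212. Within groups both changed sign, from -0.0806 to 0.962 for microglia and from -0.586 to 0.826 for astrocytes. The ependymal score was negative in all 6 groups, with an r of -0.449 over 54 libraries and -0.359 over the 50 that were not outlying. The glucocorticoid-induced score was positive in all 6, with an r of 0.365. The share of counts in long non-coding RNAs had an r of -0.483 with Htra1, and total depth 0.186, and what part composition or RNA quality had in these relations was not tested.

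**Figure D5:**
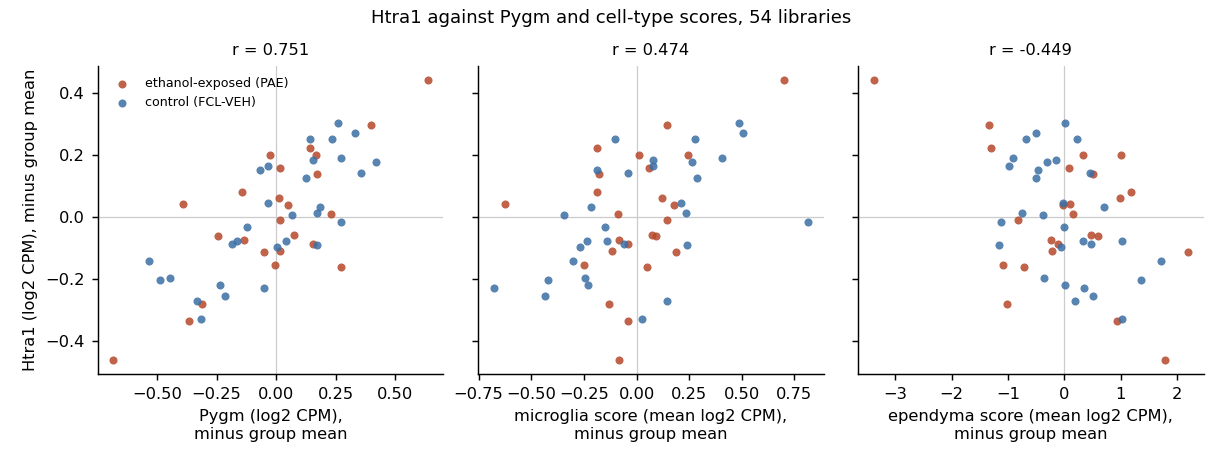
Htra1 against Pygm, the microglial score and the ependymal score in 54 libraries, each as log2 CPM minus its group mean, exposed and control libraries coloured apart. The Pygm points rise together most closely (r = 0.751), the microglial ones scatter more (0.474), and the ependymal panel falls (-0.449) with 1 library, PAE-VEH male replicate 6 at P42, far to the left.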

How the data were processed

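Bulk RNA of the nucleus accumbens was sequenced in 54 libraries, per the labels from high-lipid extractions, with random hexamer primers and no strand specificity. The authors deposited 1 table with raw read counts per gene, and FPKM values of the same libraries, which are used for levels between genes only, and gene lengths. The submitters' processing notes name fastp and HISAT2 2.0.5, while no source used here gives the counter, the annotation release or the build. The positions of 45780 of the 45785 named genes are identical in GRCr8. A further 720 rows without a name (0.271% to 0.412% of counts) were left out. The labels give 1 batch date.

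The 3 group fits (25 adult, 29 adolescent and 30 control libraries) used edgeR 4.0.16 (R 4.3.3) with TMM scaling, the default filter by group and a robust quasi-likelihood F test, at an adjusted p of 0.05. They gave 13 comparisons. Likeness is the r of log2 CPM (prior count 2) after group means were removed. The edgeR fits were tested on simulated data. Alternatives were RLE size factors, no filter, DESeq2 1.42.0, voom of limma 3.58.1, all libraries in 1 fit, marker scores as covariates, and leaving out outlying, sex-discordant and single libraries; a library was outlying when its median correlation lay over 1.5 interquartile ranges under the lower quartile. The counting error given for the lowest Htra1 count covers counting only.

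The gene, the lists and the tests were chosen with earlier results of these data known. Named were the HtrA family, the 10 genes of highest and 5 of lowest r (symbol, at least 1 CPM), the nearest tested neighbours, and in each of 24 lists the 4 largest changes among members that passed, the 2 smallest p-values where no member did, and the extremes of r. Aqp4, Drd1, Drd2 and Slc17a7 were added as defining markers, and not every list is described for every comparison.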

Additional observations from a re-analysis of the deposited data

Results flagged for a closer look

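The CPM values of 9 genes (the HtrA family, the genes around Htra1, Pygm and Gjb6) were examined in each group for a library far from the rest. That made 72 sets of values, each of a single gene in a single group. Chance alone was assumed to give such a library in a share of about 0.05 of sets, whatever the group size. Htra1 and Pygm had none. Htra2 in control males at P90 was 24.5 CPM in replicate 3, an outlying library, and 27.8 to 29.8 CPM in the others. Htra3 was 28 CPM in PAE-VEH male replicate 6 at P42, also outlying, against 6.95 to 10.3 CPM in the other eight, and 18.8 CPM in PAE-AAE male replicate 2 at P90, against 6.3 to 10.3 CPM. Gjb6 was 89.6 CPM in the same PAE-VEH male replicate 6 and 12.9 to 31.7 CPM in the rest of that group. That library also held the highest Htra1 value of its group. Cuzd1, at or near 0 CPM throughout, had a single library apart from the rest of its group 4 times, at 0.154 CPM in PAE-VEH males at P42, 0.154 CPM in PAE-AAE males at P90, 0.08 CPM in control males at P90 and 0.281 CPM in PAE-AAE females at P90.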

How the results depend on the processing

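Of the Htra1 comparisons and the likeness ranking, 482 alternative values were counted as unchanged. For a tested comparison this meant the same direction and the same side of the threshold. The P42 exposure comparisons had no test, and there it meant a value within 0.205 (log2, the SD within groups) of the main one. Their direction was not checked, and the P42 female minus male difference of 0.04 reached -0.03. In P90 males the exposure difference of -0.07 turned to 0.01 with the astrocyte score as a covariate, and the sex difference at P42 of -0.05 to 0.04 with the choroid plexus, ependyma and cortical scores. In P90 females the exposure difference of 0.52 passed with DESeq2 (0.52, adjusted p = 0.00435). The age change in control males, 0.49, no longer passed without the outlying libraries (0.46, adjusted p = 0.0561) or with the astrocyte score (0.33, adjusted p = 0.299). The cause was not tested. With Spearman's rho 6 of the 10 most like genes remained among the 10, and 7 without the outlying libraries. With 1 library left out the exposure difference ran from 0.48 to 0.58 in P90 females, from -0.14 to -0.01 in P90 males, from 0.34 to 0.48 in P42 females and from 0.31 to 0.42 in P42 males, and the age change from 0.43 to 0.56 in males and from 0.29 to 0.37 in females.

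The 618 genes of the age comparison in males were 334 without a filter, 1166 by DESeq2, 936 with all libraries in 1 fit, 402 by voom, 40 with the astrocyte score and 66 with the 3 neighbouring scores, and the 97 of females were 61, 349 and 249 without a filter, by DESeq2 and by voom, and 185% of that count with all libraries in 1 fit. Exposure counts of 0 by edgeR were 21 at P42 (mean of sexes), 8 in P90 females and 2 in P90 males by DESeq2. Values added after the data were seen are the r of the scores and the calls of listed genes without outlying or sex-discordant libraries. No paired analysis was possible because the labels give no replicate number that groups share. Htra1 had at least 3914 counts per library, so counting error is small beside the spread between libraries.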
